A study of Mus musculus with 6 samples.

Results

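The genes described here encode secreted matricellular proteins: the CCN proteins Ccn1 to Ccn5, the thrombospondins Thbs1 to Thbs3, osteopontin (Spp1) and tenascin-C (Tnc). They were chosen by gene symbol, and all 10 were found among the 53465 genes of the count table. The list was put together with results of the comparison below already known, so every value of that comparison is given as a description of these libraries and as support for nothing. Of the 10 genes, 9 had counts and passed the filter on low counts that left 14038 genes, and Thbs2 had 0 counts in all 6 libraries.

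RNA-seq of polyadenylated RNA compared fractions sorted from one axitinib-resistant population of 4T1, a mouse mammary carcinoma line. Axitinib inhibits VEGF receptor kinases. The population came from lesions that arose after surgery in mice dosed with axitinib at 100 mg/kg/day, and was then cultured for over 2 months in 0.5 µM axitinib. Both fractions thus came from a resistant population grown in the drug, and the resistance of each fraction was not tested here. Staining with C12FDG, which fluoresces once β-galactosidase has cleaved it, gave a high fraction (SM positive, 3 libraries) and a low fraction (SM negative, 3 libraries), and no parental or drug-free cells were analysed here.

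Matricellular proteins are secreted into the matrix but act mainly as signals rather than as scaffolds. CCN proteins bind integrins and heparan sulfate proteoglycans, and Ccn1 and Ccn2 are standard transcriptional targets of YAP and TAZ, the coactivators that are restrained by the Hippo kinases and bind DNA through TEAD factors. Thrombospondin-1 inhibits angiogenesis, binds CD47 and CD36 and can activate latent TGF-β. Osteopontin binds αv integrins and CD44, and tenascin-C is an adhesion-modulating glycoprotein that is often high in tumour stroma.

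Total counts lay between 18733801 and 26533528 per library. CPM values are counts relative to a common library total after TMM scaling, and errors are SD over n = 3 libraries. Of 8 epithelial markers, 7 passed the filter, led by Krt7 (1386 ± 15.2 CPM in SM negative and 1314 ± 79.3 in SM positive cells) and Krt18 (1056 ± 33.4 and 984 ± 62.2 CPM), and Krt5 had 0 counts. Markers of other cells summed to 0.0467 to 0.427 CPM for 6 endothelial genes, 4.89 to 8.86 CPM for 10 macrophage and leukocyte genes, most of it Cd68, and 10.1 to 14.7 CPM for 6 smooth muscle and pericyte genes, most of it Mcam. The summed level of 10 fibroblast markers was 4.45 to 5.17 CPM in SM negative and 5.93 to 8.21 CPM in SM positive libraries, most of it Pdgfra, while Lum, Dpt, Thy1 and Col3a1 had 0 counts in all libraries. No marker passed between the fractions without the replicate block described below (edgeR; 5 at an unadjusted p under 0.05, 0 with DESeq2 or limma-voom). With it Mcam (10.5 ± 0.959 and 13.2 ± 1.31 CPM in SM negative and SM positive cells, adjusted p = 0.0131) and Pdgfra (adjusted p = 0.0423) were higher in SM positive cells, and Epcam (151 ± 6.01 and 136 ± 6.21 CPM, adjusted p = 0.0147), Krt19 (adjusted p = 0.0263) and Cd68 (6.74 ± 1.1 and 4.89 ± 0.722 CPM, adjusted p = 0.0148) were lower. Of all genes tested, 1.35% passed without the block and 14.1% with it, the latter 8.52% higher and 5.6% lower. The part of these markers in the results below was not tested. Whether fewer cells expressed a gene or each cell held less of its RNA cannot be told apart in bulk libraries.

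RefSeq promoter windows of 300 bases (250 before the start and 50 from it, GRCm38.p6) were at hand for 5 members. Windows of Ccn1, Spp1 and Tnc are shown, because these are the members with a window that passed the test between fractions with or without the replicate block. Spp1 and Tnc have 2 windows each, of which 1 is printed. Capitals mark matches on either strand to 3 motifs. The letters GGAATG are the core that TEAD factors bind. The letters TGTGGT are the core that RUNX factors bind. The letters TATANA stand for the box that lies shortly before the start of many genes.
Ccn1 promoter, chr3:145649936-145650235, minus strand: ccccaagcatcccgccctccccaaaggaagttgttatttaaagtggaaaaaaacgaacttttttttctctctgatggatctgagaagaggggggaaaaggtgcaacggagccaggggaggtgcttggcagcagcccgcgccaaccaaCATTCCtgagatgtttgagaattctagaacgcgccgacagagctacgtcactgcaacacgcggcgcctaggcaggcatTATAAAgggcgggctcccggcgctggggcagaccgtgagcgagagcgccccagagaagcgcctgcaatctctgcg
Spp1 promoter, chr5:104434861-104435160, plus strand: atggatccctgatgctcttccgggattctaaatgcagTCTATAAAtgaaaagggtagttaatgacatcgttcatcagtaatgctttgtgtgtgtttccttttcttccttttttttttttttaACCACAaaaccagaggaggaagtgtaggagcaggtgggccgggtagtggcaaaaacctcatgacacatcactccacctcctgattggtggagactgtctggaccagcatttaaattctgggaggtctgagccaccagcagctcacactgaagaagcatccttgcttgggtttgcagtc
Tnc promoter, chr4:64046887-64047186, minus strand: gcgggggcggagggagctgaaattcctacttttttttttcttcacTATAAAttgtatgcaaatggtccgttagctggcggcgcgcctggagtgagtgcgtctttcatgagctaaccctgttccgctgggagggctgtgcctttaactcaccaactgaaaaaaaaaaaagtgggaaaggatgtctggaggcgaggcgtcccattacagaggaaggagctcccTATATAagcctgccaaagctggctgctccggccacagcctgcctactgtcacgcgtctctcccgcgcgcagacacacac
In the Ccn1 window the letters CATTCC, which are GGAATG on the other strand, began 103 bases before the start, and TATAAA began 25 bases before it. GGAATG occurred on either strand in 14.7% of all 32851 promoter windows and in none of the windows of Spp1, Tnc, Thbs2 and Thbs3. No window was at hand for Ccn2, Ccn3, Ccn4, Ccn5 and Thbs1, so their promoters were not searched. In the printed Spp1 window ACCACA, the other strand of TGTGGT, began 128 bases before the start, and 16.8% of all windows held that motif. The matches to TATANA began 213 and 211 bases before the start of Spp1 and overlapped each other. In the printed Tnc window they began 205 and 29 bases before the start, and the latter reads TATATA, which matches on both strands. The other Spp1 window held 1 match to the 3 motifs, TATANA at 240 bases before its start. The other Tnc window overlaps the printed one and held 1, TATANA at 126 bases before its own start. That match is the same stretch as the TATAAA at 205 bases before the start in the printed window. TATANA occurred in 24.7% of all windows. TGANTCA, the AP-1 core, was also searched on both strands, occurred in 7.81% of all windows, and was in none of the windows of Ccn1, Spp1, Tnc, Thbs2 and Thbs3. A match is a run of letters and was not tested as a binding site.

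Levels between genes are compared as TPM, which here is counts per kilobase of merged exons scaled to the same sum in each library. In SM negative cells Ccn1 stood highest at 1258 ± 291 and Spp1 next at 1148 ± 15.6. The Spp1 libraries (1131 to 1161) lay inside the Ccn1 range (937 to 1504), so the order of these leading genes is not beyond their spread. Thbs1 followed at 471 ± 70.6 and Ccn2 at 243 ± 24.2, without overlap between neighbours. Below them came Ccn4 at 10.2 ± 0.211, Ccn5 at 5.13 ± 1.71, Tnc at 1.73 ± 0.287, Thbs3 at 1.16 ± 0.217 and Ccn3 at 0.399 ± 0.13 TPM. The family thus had 4 abundant members, 2 at a low and 3 at a very low level.

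In SM positive cells Spp1 (1540 ± 73.4) and Ccn1 (1532 ± 323) again overlapped at the top, followed by Thbs1 at 796 ± 116 and Ccn2 at 259 ± 30.1 TPM. Ccn5 (14.2 ± 2.28, range 11.8 to 16.4) overlapped Ccn4 (15.1 ± 2.13, range 12.6 to 16.4), where the same pair was apart in SM negative cells. Tnc was at 1.26 ± 0.034, and Thbs3 (0.926 ± 0.19) and Ccn3 (0.838 ± 0.217) overlapped. Among the 14038 genes tested, Ccn1 and Spp1 ranked within the top 1.18% and Thbs1 within the top 2.73% in every library, whereas Tnc, Thbs3 and Ccn3 ranked after at least 85.7% of them. Summed over the family the level was 3139 ± 397 TPM in SM negative and 4160 ± 401 in SM positive libraries. Thbs1 made up 15.0% ± 0.386 of that sum in SM negative and 19.1% ± 1.04 in SM positive cells, and Ccn1 39.7% ± 4.5 and 36.6% ± 4.73.

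**Figure D1:**
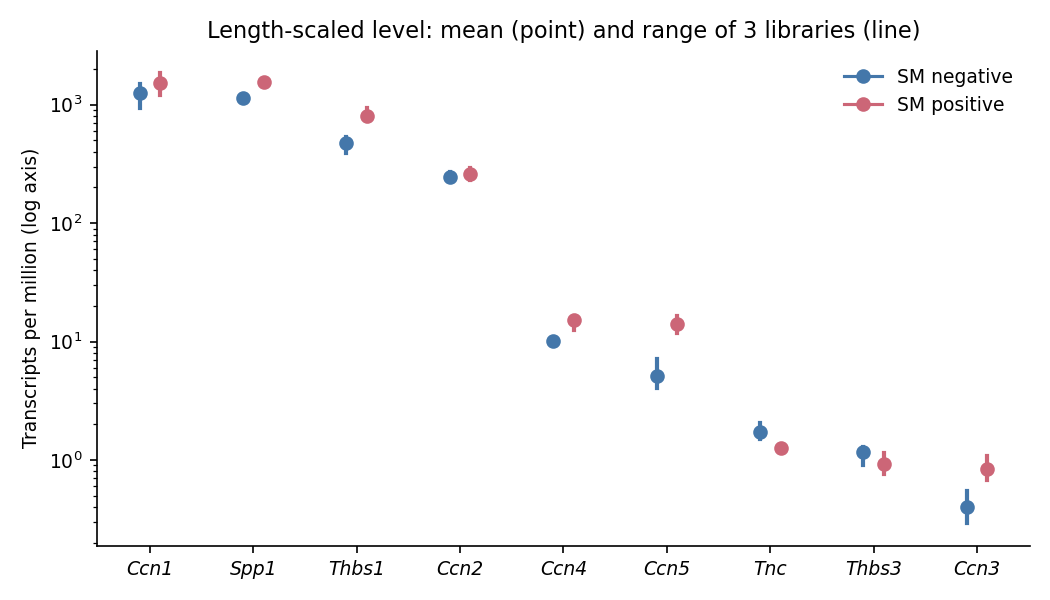
Length-scaled levels of the 9 members with counts, in TPM on a log axis. Points are means and lines the lowest to highest of 3 libraries in SM negative (blue) and SM positive (red) cells; Ccn1 and Spp1 stand at 937 or more in all libraries, and Ccn5 is the member whose ranges in the fractions lie farthest apart.

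Between the fractions, 4 of the 9 members tested passed edgeR's quasi-likelihood test at an adjusted p of 0.05, all higher in SM positive cells: Ccn5, Thbs1, Ccn4 and Spp1. Over all 14038 genes 1.35% passed, 1.14% higher and 0.214% lower. The median log2 difference was 0.39 over the 9 members and -0.00085 over all genes. With the replicate number as a block, 6 members passed, the same 4 and Ccn1 higher and Tnc lower, against 14.1% of all genes, 8.52% higher and 5.6% lower. Since the members were picked with this comparison in view, nothing is read from these shares. The ranges of the fractions did not overlap for 6 members, 5 higher and 1 lower, against 19.9% of all genes, 10.4% higher and 9.48% lower. The 5 include Ccn3, which passed the filter on low counts through the SM positive libraries, where it is high. Ccn3 is also in the median of the 9 members. Nothing is read from this count or from the median either.

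Ccn5 encodes a CCN protein that lacks the C-terminal cystine-knot domain of the other members. It stood at 2.985, 2.94 and 4.98 CPM in SM negative replicates 1, 2 and 3 and at 10.02, 8.265 and 11.3 CPM in SM positive replicates 1, 2 and 3. Every SM positive library was above every SM negative one. The rise was 2.71-fold (95% interval 1.98 to 3.72; log2 difference 1.44 ± 0.205 SE, adjusted p = 0.012), the 20th highest log2 difference of all genes tested. Within pairs of the same replicate number the ratio was 3.36, 2.81 and 2.27. The counts behind these levels were 55 to 105 in SM negative and 177 to 267 in SM positive libraries.

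Ccn4, a CCN protein first described as Wnt-inducible, stood at 21.8, 20.0 and 20.7 CPM in SM negative and at 33.05, 25.45 and 32.3 CPM in SM positive replicates 1, 2 and 3. The fractions did not overlap, and SM positive replicate 2 was the lowest of its fraction. The log2 difference was 0.54 ± 0.105 SE (95% interval 0.31 to 0.77; adjusted p = 0.0364). With limma-voom its adjusted p was 0.0646, and over all alternatives it ran from 1.47e-06 to 0.158.

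Ccn3 rested on few counts, 8, 7 and 12 in SM negative and 21, 15 and 22 in SM positive replicates 1, 2 and 3, and passed the filter on low counts through the SM positive libraries, where it is high. Its level was 0.318 to 0.569 CPM in SM negative and 0.7005 to 1.11 CPM in SM positive cells, without overlap. The log2 difference was 1.03 ± 0.352 SE (95% interval 0.26 to 1.81) and did not pass (adjusted p = 0.228; 0.0524 with the block). Ccn3 encodes a CCN protein that restrains growth in several cell types.

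Ccn1, an integrin ligand and angiogenic factor, stood at 717, 976 and 1106 CPM in SM negative and at 878, 1141 and 1332 CPM in SM positive replicates 1, 2 and 3. The fractions overlapped, and within each fraction replicate 1 was lowest and replicate 3 highest. Without the block the log2 difference of 0.26 ± 0.211 SE did not pass (adjusted p = 0.675). Within pairs the ratio was 1.22, 1.17 and 1.205. With the block the difference passed at adjusted p = 0.000161 (1.20-fold, log2 difference 0.26 ± 0.0404 SE), and it also passed with the block when any 1 pair was left out (adjusted p from 8.04e-05 to 0.0245). Over the alternatives without the block its adjusted p reached 0.919.

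Ccn2, or connective tissue growth factor, stood at 248, 239 and 283 CPM in SM negative and at 266, 239.8 and 298 CPM in SM positive replicates 1, 2 and 3. The fractions overlapped almost fully. The log2 difference was 0.06 ± 0.0874 SE with a 95% interval from -0.13 to 0.26 (adjusted p = 0.82), which leaves room for a difference of up to 1.20-fold. With the block the interval was -0.02 to 0.14 (adjusted p = 0.342).

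Thbs1 stood at 905, 1076 and 1174 CPM in SM negative and at 1608, 1605 and 2023 CPM in SM positive replicates 1, 2 and 3. No library of one fraction reached the range of the other. The rise was 1.66-fold (95% interval 1.38 to 2.00; log2 difference 0.73 ± 0.117 SE, adjusted p = 0.0281), with pair ratios of 1.78, 1.49 and 1.72. In CPM it had the widest gap between fraction means of all members, from 1051 ± 136 to 1745 ± 240.1.

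Thbs2, the other trimeric thrombospondin, had 0 counts, which allows at most 0.113 to 0.16 CPM per library at a limit of 3 counts, for counting error only. Thbs3, which belongs to the pentameric thrombospondins, had 26 to 52.9 counts per library. Its level was 1.67, 2.24 and 2.275 CPM in SM negative and 1.985, 1.54 and 1.32 CPM in SM positive replicates 1, 2 and 3. Pair 1 was higher and pairs 2 and 3 were lower in SM positive cells, and the difference did not pass (log2 difference -0.33 ± 0.233 SE, adjusted p = 0.604). Mtx1, on the opposite strand, overlaps Thbs3 and had 965 to 1532 counts per library, so reads of the pair may not be separated where the strand setting of the counting is unknown.

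Spp1 stood at 707, 690.0 and 696.5 CPM in SM negative and at 970.3, 888 and 893 CPM in SM positive replicates 1, 2 and 3. It was the steadiest abundant member: the SD was 1.23% of the mean in SM negative and 5.04% in SM positive libraries, and the fractions were far apart. The rise was 1.31-fold (95% interval 1.21 to 1.43; log2 difference 0.39 ± 0.0537 SE, adjusted p = 0.00962), with pair ratios of 1.37, 1.29 and 1.28. Gm42793 lies over Spp1 on the same strand and shares 14.3% of the 31-base stretches of Spp1, but it was given only 22.5 to 41.6 counts per library against 12917 to 25860 for Spp1. Macrophages are a known source of osteopontin. Of the 10 macrophage and leukocyte markers, Cd68 had 91 to 169 counts per library, Csf1r 1.3 to 9.99 and Lyz2 3 to 7, the other markers had 0 to 4, and Adgre1, C1qa and C1qb were at 0 in all libraries. Their part in the Spp1 level was not tested.

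Tnc was the single member with lower levels in all SM positive libraries, at 4.855, 5.77 and 4.22 CPM in SM negative and 3.64, 3.46 and 3.55 CPM in SM positive replicates 1, 2 and 3. The ranges did not overlap. The log2 difference was -0.47 ± 0.157 SE (95% interval -0.82 to -0.13) and did not pass without the block (adjusted p = 0.221). With the block Tnc was 1.39-fold lower in SM positive cells (adjusted p = 0.0393), and this call ended when any 1 pair was left out (adjusted p from 0.0754 to 0.256). It rested on 70 to 122 counts per library.

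**Figure D2:**
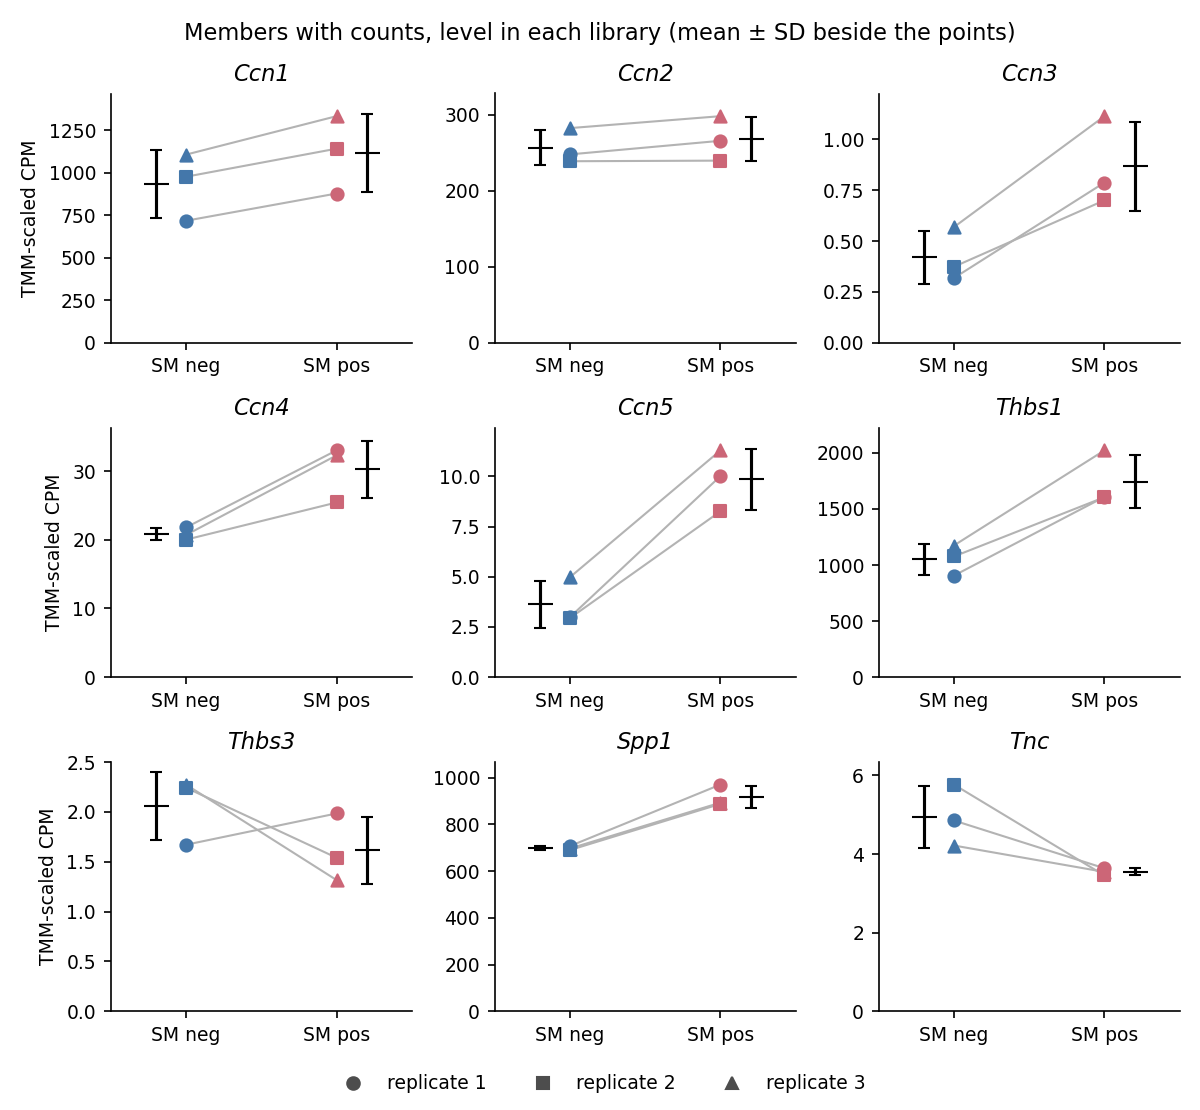
Level of each member with counts in each library, in TMM-scaled CPM. Grey lines join libraries with the same replicate number, and black bars are the mean ± SD of 3 libraries; Ccn5, Thbs1, Ccn4, Spp1 and Ccn3 lie higher in all SM positive libraries, Tnc lies lower, and Ccn1 is higher in each pair while the fractions overlap.

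Without the block, fewer calls were made in 5 of the 6 fits with 1 library left out. Leaving out SM negative replicate 1 left 1 member past the threshold (Spp1), leaving out SM negative replicate 2 left 0 (5 at an unadjusted p under 0.05), and leaving out SM negative replicate 3 left 2 (Ccn5 and Thbs1). Leaving out SM positive replicate 3 left 2 (Spp1 and Thbs1), SM positive replicate 1 left 3 and SM positive replicate 2 left 4. The log2 differences over these fits ran from 1.303 to 1.73 for Ccn5, 0.61 to 0.82 for Thbs1, 0.47 to 0.65 for Ccn4 and 0.35 to 0.42 for Spp1. Over all genes the number of calls went from 190 to between 25 and 123 in the same fits. With the block, Ccn5, Thbs1, Ccn4 and Spp1 each passed when any 1 pair was left out, at adjusted p = 0.00259 or less.

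**Figure D3:**
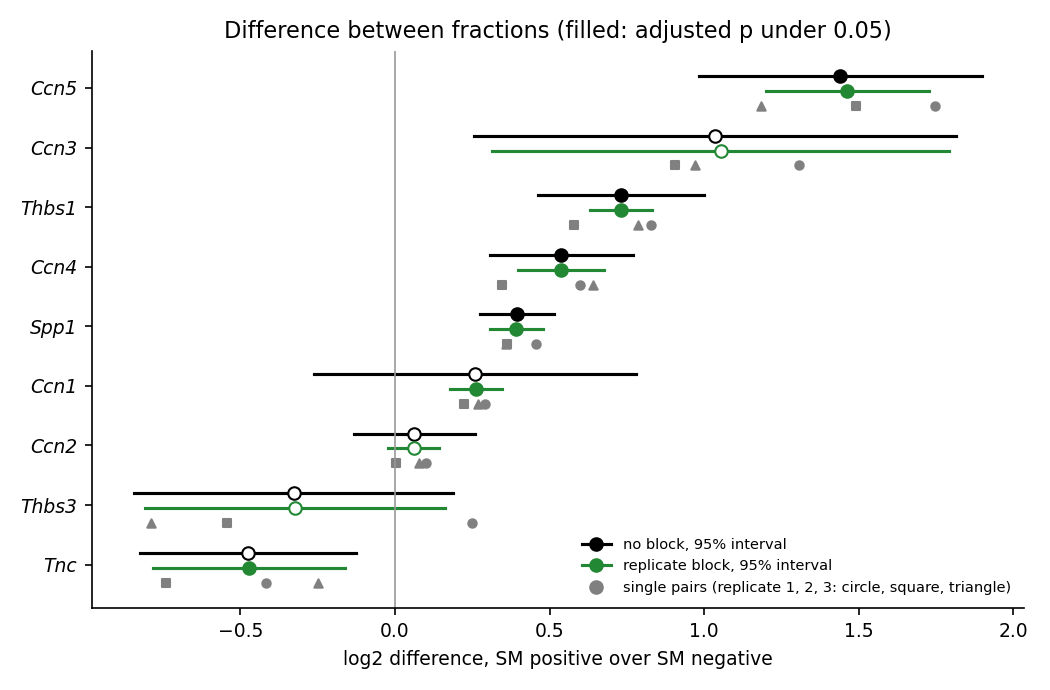
Log2 difference of SM positive over SM negative cells for the 9 members tested, with 95% intervals without (black) and with (green) the replicate block, filled where the adjusted p is under 0.05. Grey symbols are single pairs; the block narrows the Ccn1 interval from -0.26 to 0.78 down to 0.18 to 0.35 and leaves the estimates nearly where they were.

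The members also differed in how far they varied with the replicate number. This is another comparison than the one known when the members were chosen. It uses the same 6 libraries and the spread within the same pairs, so it is not independent of that choice. The test of the replicate coefficients was added after the data were seen. Between replicate numbers, 4 of 9 members differed, Ccn1 (adjusted p = 3.05e-07), Thbs1 (0.00112), Ccn2 (0.00142) and Ccn5 (0.0313), against 17.0% of all genes tested. Averaged over the fractions, Ccn1 spanned 1.53-fold between replicate numbers, beside a 1.20-fold difference between fractions. The span is the highest over the lowest replicate mean, a measure that tends to run larger than a difference between the fraction means. For Ccn2 the span was 1.21-fold, for Thbs1 1.28-fold and for Ccn5 1.52-fold. Spp1 spanned 1.06-fold (adjusted p = 0.416), below its 1.31-fold difference between fractions. What a replicate number marks is not given in the sources used here.

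In the 7 lists described further on, 5 of 16 tested YAP/TAZ-TEAD targets differed between replicate numbers, 8 of 18 receptor genes, 3 of 6 other matricellular genes, 4 of 19 Hippo genes, 5 of 12 TGF-β response genes, 8 of 13 MRTF-SRF genes and 1 of 7 Wnt targets, against the same 17.0% of all genes. Ankrd1, a muscle ankyrin repeat protein and YAP target, stood at 122, 230.5 and 227 CPM in SM negative and at 162, 305 and 289 CPM in SM positive replicates 1, 2 and 3. It differed between replicate numbers (adjusted p = 2.05e-10), and between fractions only with the block (1.31-fold higher, adjusted p = 1.13e-06, against 0.744 without it). In Ccn1 and Ankrd1 replicate 1 was the lowest of both fractions, while Ccn2 was lowest in replicate 2. The order was not shared by the list: of the 5 YAP/TAZ-TEAD targets that differed, replicate 1 was lowest in both fractions in 3 and highest in both in 2, Axl (850.7 and 927.9 CPM, adjusted p = 0.0191) and Nuak2 (14.7 and 14.4 CPM, adjusted p = 0.0112). Nuak2 was named after its values were seen. Of the 8 MRTF-SRF genes that differed, replicate 1 was lowest in both fractions in 8 and highest in both in 0. Lowest and highest counts were 1 and 5 of 8 receptor genes, 0 and 3 of 3 other matricellular genes and 1 and 2 of 4 Hippo genes. They were 2 and 3 of 5 TGF-β response genes and 1 and 0 of 1 Wnt target.

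**Figure D4:**
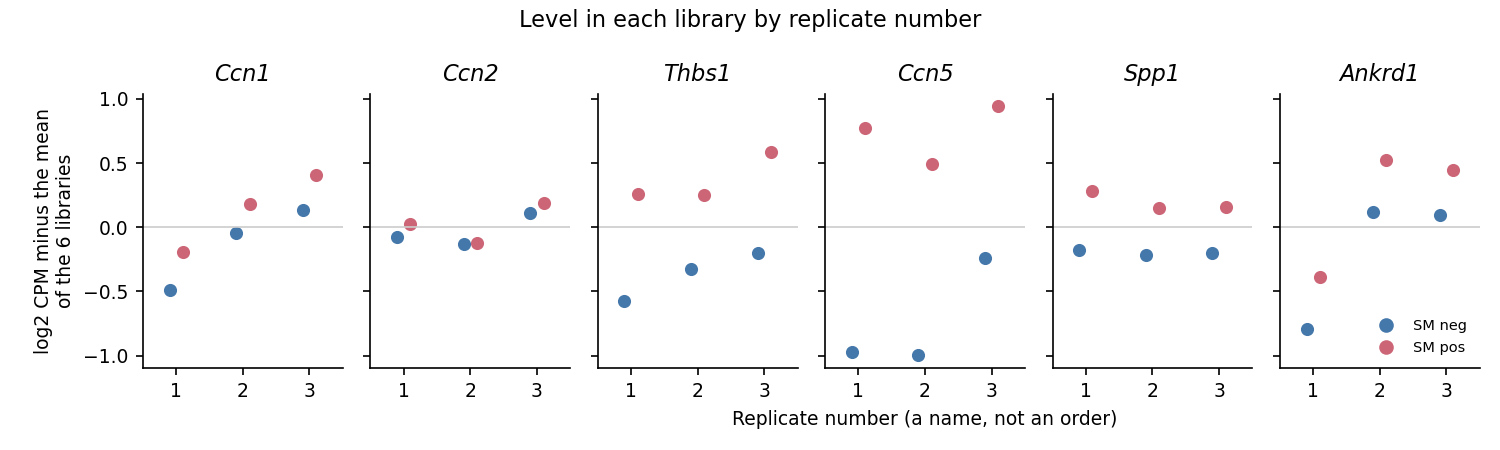
Level of 5 members and of Ankrd1 in each library, as log2 CPM minus the mean of the 6 libraries, by replicate number, in SM negative (blue) and SM positive (red) cells. Ccn1 and Ankrd1 are lowest in replicate 1 of both fractions and Ccn2 in replicate 2, whereas Spp1 differs mainly between fractions.

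The genes of 7 lists around the members were then read from the same fit, beside a median log2 difference of -0.00085 over all genes. Of all genes 1.14% were called higher and 0.214% lower without the block, and 8.52% and 5.6% with it. Of 20 YAP/TAZ-TEAD targets other than Ccn1 and Ccn2, 16 were tested, 4 rose and 0 fell (4 calls with DESeq2, 3 with limma-voom), and the median log2 difference was 0.11. Crim1, a transmembrane BMP-binding protein, rose from 109 ± 5.43 to 150.1 ± 12.1 CPM (1.38-fold, adjusted p = 0.0131). Nt5e, the ectonucleotidase CD73, rose from 229 ± 10.01 to 297 ± 15.05 CPM (log2 difference 0.37, adjusted p = 0.0152). Ccdc80, a secreted matrix protein, rose from 1.14 ± 0.0845 to 2.59 ± 0.304 CPM (2.28-fold, adjusted p = 0.0249), on only 20 to 78 counts per library. The other gene that rose was Tgfb2, a TGF-β ligand, at 11.9 ± 1.51 and 18.02 ± 2.31 CPM (adjusted p = 0.0485), named here after its value was seen. Axl, a receptor kinase, and Myof, a membrane-repair protein, were the most abundant of the list and did not pass (802 ± 42.8 and 843 ± 77.3 CPM for Axl, 626 ± 9.62 and 581 ± 20.8 CPM for Myof, SM negative and SM positive). With the block 6 of 16 rose, beside 8.52% of all genes, and 1, the stress-response gene Gadd45a, fell, beside 5.6%, and Ptpn14, a phosphatase that binds YAP, was among those that rose. GGAATG occurred in the windows of 6 of the 14 list genes that had one, beside 16.6% of all 27025 genes with a window.

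Of 19 Hippo pathway genes, all were tested and 0 passed without the block (edgeR; 5 at an unadjusted p under 0.05, 1 with DESeq2, 0 with limma-voom), with a median log2 difference of 0.07. With the block 4 of 19 rose and 1 fell, beside 8.52% and 5.6% of all genes. Among those that rose were Nf2, the merlin tumour suppressor (203 ± 10.8 to 243 ± 10.4 CPM, adjusted p = 0.000133), and the angiomotin relative Amotl1 (256 ± 14.3 to 294 ± 24.2 CPM, adjusted p = 0.00316). The TEAD factor gene Tead2 was the one that fell (57.0 ± 5.42 to 51.5 ± 5.82 CPM, adjusted p = 0.0418 with the block). Mob1a, an adaptor of the LATS kinases and with Amotl1 the most abundant of the list, stood at 218 ± 5.37 and 236 ± 5.84 CPM and did not pass in either fit.

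Of 22 genes for receptors that bind the members' products, 18 were tested, 1 rose and 0 fell, with a median log2 difference of 0.12. Sdc4, the heparan sulfate proteoglycan syndecan-4, rose from 207 ± 7.91 to 263 ± 23.6 CPM (1.27-fold, adjusted p = 0.0415). With limma-voom 0 receptor genes passed, Sdc4 included, and with DESeq2 2 did. With the block 8 of 18 rose and 1 fell, beside 8.52% and 5.6% of all genes. The 8 include the integrin genes Itgb3 (8 to 35 counts per library) and Itgb8 (6 to 22). Both passed the filter on low counts through the SM positive libraries, where they are high, so nothing is read from their calls. Itgb5, whose product pairs with αv integrin and binds Ccn1 and osteopontin, was at 187 ± 16.7 and 249 ± 28.1 CPM (adjusted p = 2.72e-06 with the block, 0.0616 without it). The Wnt co-receptor gene Lrp6 was at 88.1 ± 10.3 and 101 ± 11.1 CPM (adjusted p = 0.00602 with the block). Itga2, a collagen receptor chain, was the one that fell with the block (89.9 ± 12.5 to 70.9 ± 9.79 CPM, adjusted p = 3.53e-05). The most abundant receptor genes, the integrin chains Itga3 (1412 ± 75.4 and 1520 ± 163 CPM) and Itgb1 (1293 ± 16.3 and 1364 ± 22.7 CPM), did not pass, and Cd36 had 0 counts.

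Of 26 other matricellular genes only 6 passed the filter. The closest relatives of the CCN, thrombospondin and tenascin members, Ccn6, Thbs4, Comp, Tnxb, Tnr and Tnn, had 0 to 7 counts per library. Of the osteopontin relatives on the list, Dmp1 had 38 to 86 counts per library and was tested, while Ibsp and Mepe had 0 to 1. Without the block 0 of the 6 passed in edgeR (1 at an unadjusted p under 0.05, 1 with DESeq2, 0 with limma-voom). Postn (periostin, 290.0 ± 17.5 and 307 ± 9.13 CPM) and Fbln2 (fibulin-2, 205 ± 12.4 and 188.5 ± 19.5 CPM) were the most abundant. The median log2 difference of the 6 was 0.13. With the block 3 of the 6 rose and 0 fell, beside 8.52% and 5.6% of all genes. Matn2 (matrilin-2, 20.0 ± 1.37 to 26.2 ± 1.4 CPM, adjusted p = 0.000351) and Sparc (155 ± 11.6 to 170.2 ± 17.2 CPM, adjusted p = 0.0357) were among those that rose.

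The TGF-β, MRTF-SRF and Wnt lists held 0 calls in edgeR without the block. At an unadjusted p under 0.05 they held 0, 2 and 2, with DESeq2 0, 1 and 1, and with limma-voom 0. Their median log2 differences were 0.07, 0.10 and -0.09. The calls with the block that follow stand beside 8.52% of all genes higher and 5.6% lower. Of 12 TGF-β response genes tested, 1 rose with the block, the feedback inhibitor gene Pmepa1 (126 ± 12.2 to 139 ± 17.7 CPM, adjusted p = 0.0326). The most abundant were Fn1 (fibronectin, 1905 ± 57.4 and 2073 ± 209 CPM) and the transcription factor gene Bhlhe40 (230.5 ± 30.1 and 239.7 ± 20.2 CPM), which did not pass in either fit. Of 13 MRTF-SRF genes tested, 4 rose with the block, led by Cald1 (caldesmon, 544 ± 22.7 to 655 ± 51.8 CPM, adjusted p = 0.000123) and the tropomyosin gene Tpm2 (5.24 ± 0.55 to 7.81 ± 1.21 CPM, adjusted p = 0.00329), while the actins Actg1 and Actb did not pass. Of 7 Wnt target genes tested, 1 rose and 1 fell with the block, the BMP and Wnt inhibitor gene Apcdd1 (7.96 ± 0.767 to 11.6 ± 1.08 CPM, adjusted p = 0.000379) and Myc (283 ± 26.3 to 251 ± 15.0 CPM, adjusted p = 0.00886). Axin2, the most widely used Wnt reporter gene, had 0 to 4 counts per library.

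**Figure D5:**
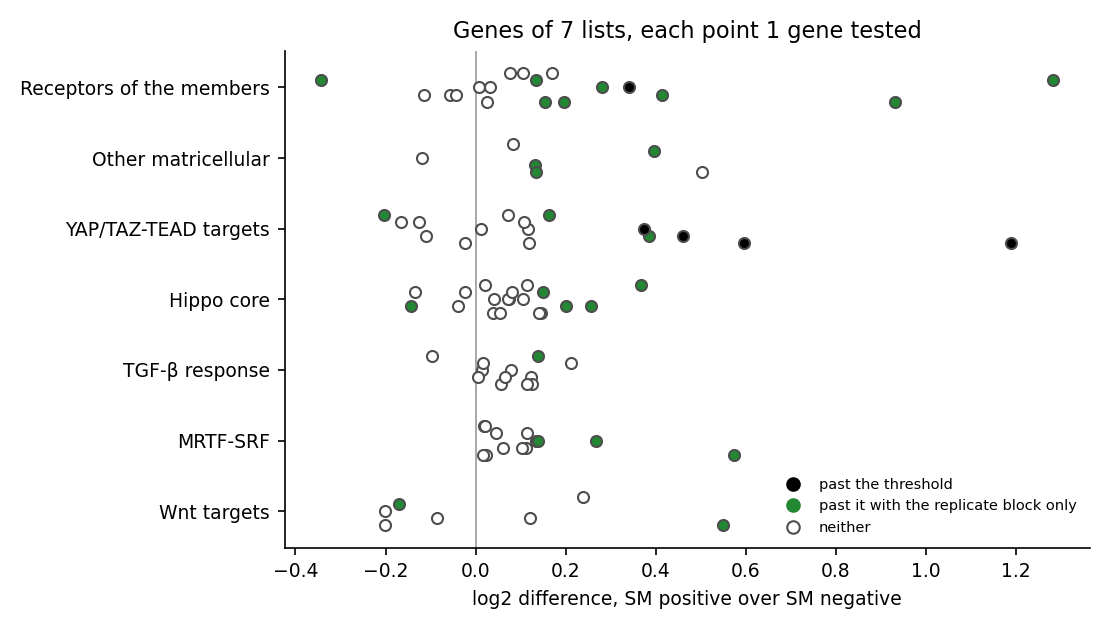
Log2 difference of SM positive over SM negative cells for the genes tested in 7 lists, each point 1 gene. Black points passed an adjusted p of 0.05 without the block (4 YAP/TAZ-TEAD targets and the receptor gene Sdc4), green points passed with the replicate block only.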

How the data were processed

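The authors deposited expected counts per gene and library, which need not be whole; 13.5% to 14.4% of a library's values were not. The submitters' processing notes name FastQC (0.11.5), STAR (2.6.0a), RSEM (1.3.1) and the GRCm38 build, with no roles. The annotation release and strand setting were not given in the sources used here. Of 53465 identifiers, 53360 matched GENCODE M21.

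Counts were rounded, filtered with filterByExpr, scaled by TMM and tested with edgeR 4.0.16 under R 4.3.3 (quasi-likelihood F test with robust estimation), p-values being adjusted over all genes (Benjamini-Hochberg, threshold 0.05). The code was tested on simulated data. The SE is the log2 difference over the square root of F. Levels between genes used merged exon lengths, with the longest transcript as the alternative. Other settings were RLE factors, library totals, other filters, DESeq2 1.42.0, limma-voom (limma 3.58.1), a fit without robust estimation, the replicate block and single libraries left out. Blocked fits without a pair were added after the data were seen.

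The members and lists were chosen with earlier results of these data known. Named genes were all members, up to 3 genes per list past the threshold in each direction, up to 2 per direction that passed only with the block, and the 2 most abundant of each list. One list gene was left out of its list and is not reported here. Libraries with the same replicate number deviated together from their fraction means (correlations 0.22, 0.28 and 0.196 across genes). The numbers were therefore treated as pairs in the blocked fits and the pair ratios, while the fit without the block ignored them. For different numbers the correlations were -0.175 to -0.0435. Deviations from a mean of 3 libraries sum to 0, so these must lie below 0 on average once the same-number values lie above it. No label says that replicates are separate cultures or sorts, and the p-values then cover only the spread between libraries, which could be technical.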

Additional observations from a re-analysis of the deposited data

How the results depend on the processing

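Of all genes, 190 passed between the fractions. The number was 1982 with the replicate block, 705, 1793 and 886 with the block and pair 1, 2 or 3 left out, 663 with no filter on low counts and 334 with DESeq2, and 25 to 123 without 1 library. Of the members, 4 passed, and 0 to 4 without 1 library. With the replicate block in place of no block, calls went from 0 to 3 for other matricellular genes, 1 to 9 for receptors, 4 to 7 for YAP/TAZ-TEAD targets, 0 to 5 for Hippo genes, 0 to 1 for TGF-β genes, 0 to 4 for MRTF-SRF genes and 0 to 2 for Wnt targets. The receptor calls with the block include Itgb3 and Itgb8, which passed the filter on low counts through the SM positive libraries. The cause of these changes in number was not tested. The log2 difference of Ccn2 ran from -0.020 (without SM positive replicate 3) to 0.14 with 1 library left out, the single change of sign among the 9 members over these settings. With the longest transcript in place of merged exons, all length-scaled levels came out lower. By more than 1 SD of their fraction, they became 387 and 655 TPM for Thbs1 and 993.5 and 1333 TPM for Spp1 (SM negative and SM positive), 8.77 TPM for Ccn4 in SM negative and 1.09 TPM for Tnc in SM positive cells. Ccn3, Thbs3 and Tnc had 122 counts or fewer per library, and the part of depth in their calls was not tested.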
